A study of Mnemiopsis leidyi with 40 samples.

Results

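Embryos of Mnemiopsis leidyi, a comb jelly (ctenophore), were compared on either side of the step between 7.5 and 8 h of development. The embryos labelled 8, 8.5 and 9 h (6 embryos) were set against those labelled 7 and 7.5 h (4 embryos), so that 10 of the 40 embryos of the series entered the comparison, chosen by their labelled time alone. The series followed gene expression in single whole embryos at 20 times from 0 to 20 h, with 2 embryos at each time. RNA of each embryo was measured by CEL-Seq, which barcodes each sample, amplifies its RNA by in vitro transcription and reads the 3' ends of transcripts. All embryos were untreated, and no strain, parent or spawning is given for any of them, so p-values reflect how far these embryos varied, whatever their origin. The libraries fell into pools named after their Illumina index, pool 6 with replicate 1 and pool 12 with replicate 2 of every time, and the pool was a block in the tests.

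Ctenophores are gelatinous marine animals that swim with rows of fused cilia called comb plates. Their embryos cleave rapidly in a fixed pattern and develop within about a day into a cydippid, a small hatchling with tentacles, comb rows and an apical sensory organ. As in other animals, the egg starts with transcripts from the mother, which are cleared while the embryo's own genes switch on. The gene models in these data carry only IDs that the files do not pair with names, and 0 of the 16548 IDs matched the RefSeq gene table, so no gene name, role or sequence is given. In whole embryos, fewer cells of a type and less RNA per cell cannot be told apart.

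Reads in gene models numbered 343202 to 3057795 in the 8 to 9 h embryos and 1372143 to 4511124 in the 7 to 7.5 h embryos. The shallowest library was 8.5 h replicate 2, with 343202 reads, in which 3 reads correspond to a level of 8.74 CPM (reads scaled to a common library total). The share of reads that did not align was 47.5% to 54.4% at 8 to 9 h and 46.8% to 49.5% at 7 to 7.5 h. The highest of these shares was that of the shallow library. Levels below are CPM scaled by TMM, a method that corrects for differences in composition between libraries, and levels of 1 gene were compared only between embryos.

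The 6 embryos of 8 to 9 h were not alike, and the way they differed did not follow age. Some gene models alternated between embryos of the same age already at 4, 4.5 and 5.5 h, which is described first because it touches the comparison. ML234560a had 145 and 9.34 CPM in the replicates 1 and 2 of 4 h, 9.24 and 199 CPM at 4.5 h, and 286 and 3.44 CPM at 5.5 h. ML22322a showed the opposite order, with 0 and 125 CPM at 4 h, 46.2 and 0 CPM at 4.5 h, and 1.38 and 20.7 CPM at 5.5 h. Each gene was thus high in 1 embryo of a pair and low in the other, and the pair of genes never stood high together at these ages. Both genes come from the lists described next, whose rule asks for such a gap at these ages, so this follows from the choice. In the embryos compared here, ML234560a had 227 and 143 CPM at 8 h, 4.12 and 52.3 at 8.5 h, and 11.0 and 218 at 9 h, against 7.64 and 9.59 CPM at 7 h and 5.11 and 7.10 at 7.5 h. ML22322a had 0.605 and 1.11 CPM at 8 h, 181 and 4.75 at 8.5 h, and 164 and 0 at 9 h, against 101 and 67.6 CPM at 7 h and 168 and 187 at 7.5 h. For both genes, 8.5 h replicate 1 and 9 h replicate 1 had levels like those of the 7 to 7.5 h embryos, while the other 4 embryos of 8 to 9 h did not.

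These 2 genes were not alone. At 3 of the 10 sampled ages from 0 to 6.5 h (4, 4.5 and 5.5 h) ML08382a, one of the largest differences between the windows that did not pass the test, had at least 20 CPM in 1 embryo and at most 1 part in 8 of that in the other. In all, 22 gene models did so at the same 3 ages, 9 in the direction of ML08382a (the first list) and 13 in the opposite direction (the second list), with none in a mixed pattern. The rule was chosen after values had been seen, so the lists get no test as sets. Summed over the first list, the 13 embryos of 0 to 6.5 h that were high had 508 to 937 CPM and the other 7 had 13.8 to 49.4 CPM, with the second list the other way about (6.80 to 24.3 CPM and 730.2 to 1214 CPM). Both embryos of 0, 1, 5, 6 and 6.5 h were high in the first list and both of 2 and 3 h in the second, so the order did not run with age.

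Across the step studied here, the alternating genes divided most embryos by window. The lists were built on ML08382a, itself named for its large difference between the windows, so this follows in part from the choice. The first list summed to 436 and 374 CPM at 8 h, 224 and 401 at 8.5 h, and 294 and 421 at 9 h, against 49.3 and 53.5 CPM at 7 h and 101 and 58.7 at 7.5 h. The second list summed to 36.3 and 35.3 CPM at 8 h, 514 and 49.9 at 8.5 h, and 459.7 and 25.5 at 9 h, against 560 and 493 CPM at 7 h and 638 and 599 at 7.5 h. All 4 embryos of 7 to 7.5 h were thus high in the second list, as were 8.5 h replicate 1 and 9 h replicate 1, and the other 4 embryos of 8 to 9 h were low in it. In the first list, however, 8.5 h replicate 1 and 9 h replicate 1 stood between the 7 to 7.5 h embryos and the other 4. Of the 22 gene models, 19 could be tested between the windows. None of the 19 passed (edgeR quasi-likelihood test, 0 at an adjusted p below 0.05). Of all 6305 genes tested 0.317% were called, so 0 of 19 is near that share. The log2 fold changes of the 19 had medians of 2.69 in the first list and -2.36 in the second, which the choice of ML08382a fixes in part. Age and this division cannot be told apart in the 4 embryos of 8 to 9 h that were low in the second list, so results are given below also without 8.5 h replicate 1 and 9 h replicate 1, and with these 2 alone at 8 to 9 h.

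**Figure D1:**
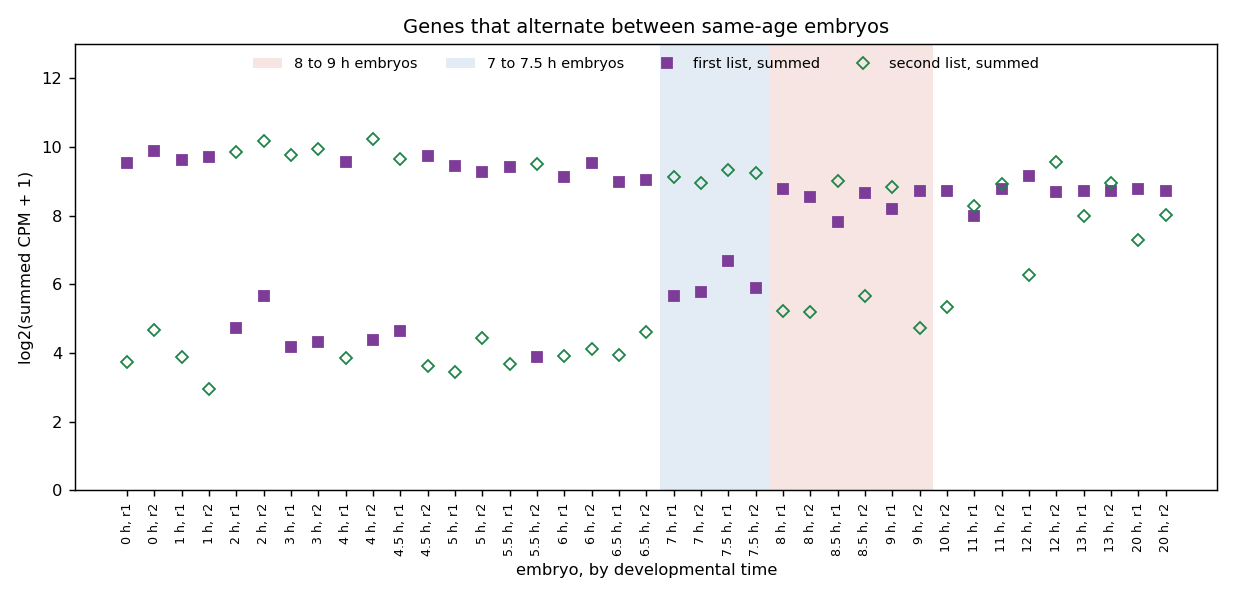
Summed level of the first list (9 gene models, filled squares) and the second list (13 gene models, open diamonds) in 39 embryos in order of developmental time, as log2(summed CPM + 1), with red shading for the 8 to 9 h embryos and blue for the 7 to 7.5 h embryos (r1 and r2, replicates 1 and 2). One list was high where the other was low up to 8 h, while 8.5 h replicate 1 and 9 h replicate 1 held the second list at 514 and 459.7 CPM and the first at 224 and 294 CPM.

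Few genes passed the test between the windows, and most of them were higher at 8 to 9 h. Far more, 1156 of the 6305 gene models tested, had an unadjusted edgeR p below 0.05. Of 6305 gene models tested, 20 were called (0.317%), 15 higher (0.238%) and 5 lower (0.0793%) at 8 to 9 h, at an adjusted p below 0.05 and a difference of at least 2-fold (edgeR quasi-likelihood test, Benjamini-Hochberg adjustment over all genes tested). The 15 higher genes had a median log2 fold change of 3.04 (2.07 to 4.39), and the 5 lower genes a median of -2.21 (-3.17 to -1.32), against a median of 0.03 over all genes tested. Adjusted p-values of the called genes lay between 0.0243 and 0.0462, close to the threshold, and 45 further genes of at least 2-fold had an edgeR adjusted p between 0.05 and 0.06. On the same 6305 genes DESeq2 called 433, 312 higher and 121 lower, all 20 among them. In edgeR the count was 2 without the pool as block (1042 at an unadjusted p below 0.05), and 0 with glmTreat, which tests against a 2-fold difference (300). A fit of 39 embryos with a factor for the 20 times called 163 of 10569 genes for the same difference (1.54%), 109 higher (1.03%) and 54 lower (0.511%), with 18 of the 20 genes among them. The number called ran from 0 to 71 in edgeR when 1 embryo at a time was left out, as the plot of calls with each embryo left out shows.

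**Figure D2:**
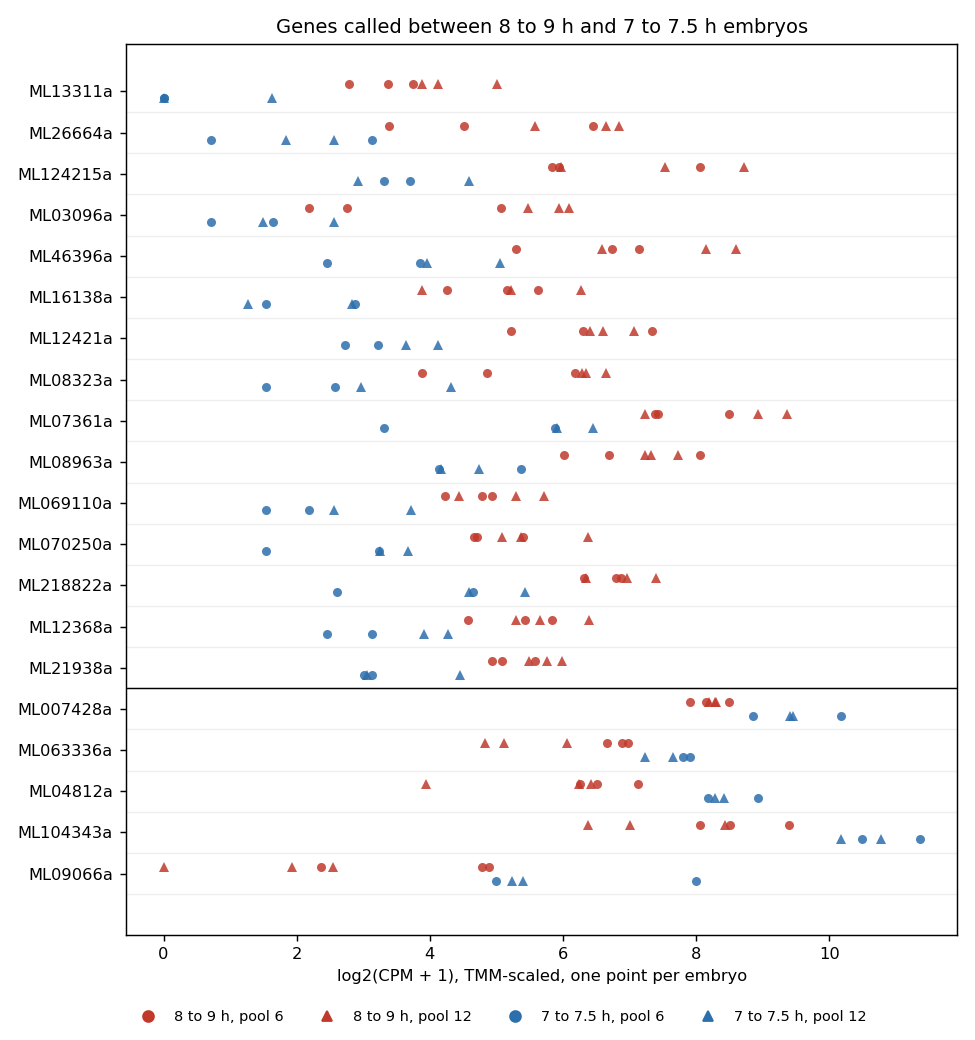
Level of each of the 20 called genes in each of the 10 embryos, as log2(CPM + 1), with 8 to 9 h embryos in red above 7 to 7.5 h embryos in blue, and circles for pool 6 and triangles for pool 12. The 15 genes above the line were higher and the 5 below it lower at 8 to 9 h, and for 18 of the 20 the red and blue points do not overlap.

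Among the higher genes, ML12421a had the smallest p. It had 160.4 and 83.7 CPM at 8 h, 36.2 and 95.8 at 8.5 h, and 77.5 and 132 at 9 h, against 8.31 and 11.5 CPM at 7 h and 5.64 and 16.4 at 7.5 h. Every embryo of 8 to 9 h was thus at least at 36.2 CPM and no embryo of 7 to 7.5 h above 16.4 CPM, a log2 fold change of 3.26 ± 0.44 (SE, edgeR adjusted p = 0.0243). ML46396a had 105 and 94.9 CPM at 8 h, 38.2 and 282 at 8.5 h, and 139.9 and 385 at 9 h, against 4.47 and 14.5 CPM at 7 h and 13.4 and 32.2 at 7.5 h. The gap between the windows was narrow, since 8.5 h replicate 1 stood just above 7.5 h replicate 2, while the log2 fold change was 3.43 ± 0.53 (SE, edgeR adjusted p = 0.0301).

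Among the called genes that the naming rule took, ML26664a had the largest fold change. It had 21.8 and 46.8 CPM at 8 h, 9.45 and 98.5 at 8.5 h, and 86.1 and 113 at 9 h, against 0.639 and 2.57 CPM at 7 h and 7.75 and 4.87 at 7.5 h. The windows did not overlap, by a margin of 9.45 to 7.75 CPM, and the log2 fold change was 3.93 ± 0.75 (SE, edgeR adjusted p = 0.0462). ML124215a had 60.2 and 61.5 CPM at 8 h, 55.9 and 183 at 8.5 h, and 265 and 419 at 9 h, against 8.95 and 6.55 CPM at 7 h and 12.0 and 23.1 at 7.5 h. Its level was higher at each later age in the mean, with a log2 fold change of 3.78 ± 0.67 (SE, edgeR adjusted p = 0.0462). ML07361a, the most abundant of the higher genes, had 166 and 149 CPM at 8 h, 172 and 660 at 8.5 h, and 357 and 488 at 9 h, against 8.95 and 58.9 CPM at 7 h and 57.8 and 86.4 at 7.5 h. Its lowest 8 to 9 h embryo was 8 h replicate 2 and not 8.5 h replicate 1, and the log2 fold change was 2.68 ± 0.51 (SE, edgeR adjusted p = 0.0462).

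The other higher genes that the naming rule took were ML08963a, ML16138a and ML069110a. ML08963a had a median of 154 CPM at 8 to 9 h (63.8 to 266), against 16.6, 25.7, 40.2 and 17.0 CPM in the 7 to 7.5 h embryos, a log2 fold change of 2.67 ± 0.44 (SE, edgeR adjusted p = 0.0443). ML16138a had a median of 35.5 CPM at 8 to 9 h (13.7 to 75.7) and 1.40 to 6.34 CPM at 7 to 7.5 h, and ML069110a had a median of 27.9 CPM (17.7 to 51.7) and 1.92 to 12.2 CPM. The windows did not overlap for any of the 3. The remaining 7 called genes, named here after their values were seen, were ML13311a, ML03096a, ML08323a, ML070250a, ML218822a, ML12368a and ML21938a. Among them ML03096a and ML08323a were the only 2 of the 20 called genes whose windows overlapped. ML03096a had 3.54 CPM in 8.5 h replicate 1 and 5.74 in 9 h replicate 1, beside 32.4 to 66.8 CPM in the other 4 embryos of 8 to 9 h and 0.639 to 4.91 CPM at 7 to 7.5 h. ML13311a had reads in all 6 embryos of 8 to 9 h (5.90 to 31.3 CPM) and, at 7 to 7.5 h, in 7 h replicate 2 alone (2.1 CPM, 9 reads).

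All 5 lower genes had windows that did not overlap, and the most abundant was ML104343a. It had 361 and 345 CPM at 8 h, 668 and 82.1 at 8.5 h, and 266 and 127 at 9 h, against 2617 and 1755 CPM at 7 h and 1436 and 1149.7 at 7.5 h, a log2 fold change of -2.59 ± 0.39 (SE, edgeR adjusted p = 0.0301). The 8.5 h embryos were the highest and the lowest of their window for this gene, the highest being replicate 1 and the lowest the shallow library. ML007428a had 240.0 and 314 CPM at 8 h, 359 and 309 at 8.5 h, and 282 and 292 at 9 h, against 1157 and 675 CPM at 7 h and 461 and 697 at 7.5 h. The 8 to 9 h embryos lay close together for this gene (299 ± 39.4 CPM, SD, n = 6), in contrast to 747 ± 293 CPM at 7 to 7.5 h (SD, n = 4), and the log2 fold change was -1.32 ± 0.25 (SE, edgeR adjusted p = 0.0462).

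ML04812a had 89.6 and 74.5 CPM at 8 h, 139 and 84.9 at 8.5 h, and 75.3 and 14.4 at 9 h, against 485 and 309 CPM at 7 h and 289.5 and 339 at 7.5 h, a log2 fold change of -2.21 ± 0.37 (SE, edgeR adjusted p = 0.0462). ML063336a had 125 and 65.7 CPM at 8 h, 117 and 27.4 at 8.5 h, and 100.4 and 33.7 at 9 h, against 238 and 199.7 CPM at 7 h and 222 and 149.6 at 7.5 h, a log2 fold change of -1.50 ± 0.29 (SE, edgeR adjusted p = 0.0462). In both genes the lowest embryo of 7 to 7.5 h lay above the highest of 8 to 9 h. ML09066a had the largest fall, with 4.13 and 2.81 CPM at 8 h, 26.4 and 0 at 8.5 h, and 28.7 and 4.81 at 9 h, against 254 and 36.7 CPM at 7 h and 31.0 and 41.4 at 7.5 h. Most of its 667 reads at 7 to 7.5 h came from 7 h replicate 1, the 0 comes from the shallow library, and the 2 embryos of 8 to 9 h with the most were again 8.5 h replicate 1 and 9 h replicate 1. Its log2 fold change was -3.17 ± 0.61 (SE, edgeR adjusted p = 0.0462), and it ran from -3.69 to -2.50 over the fits with 1 embryo left out.

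Single embryos stood nearer the other window in a regular way. Among the 15 higher genes the lowest 8 to 9 h embryo was 8.5 h replicate 1 in 11 genes, and among the 5 lower genes it was the highest in 3. At the far end, 9 h replicate 2 was the highest embryo in 9 of the 15 higher genes. At 7 to 7.5 h, 7 h replicate 1 was the lowest embryo in 12 of the 15 higher genes, counting ML13311a, where it shared 0 reads with both 7.5 h embryos, and the highest in all 5 lower genes. These counts describe genes that the same contrast chose.

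Without 8.5 h replicate 1 and 9 h replicate 1, edgeR called 106 genes, 56 higher and 50 lower at 8 to 9 h. These made up 1.78% of the 5951 genes tested in that fit, and 17 of the 20 called genes were among them. The alternating genes gave 12 calls, which follows from the choice, since the 2 embryos were left out for their levels of these genes. The choice also favours genes off the lists that follow the same division, such as ML03096a. Age and the division therefore cannot be told apart in the other calls either. Of the 106 calls 52.8% were higher, against 75.0% with all 10 embryos. With these 2 embryos alone at 8 to 9 h, edgeR called 0 genes, with 703 at an unadjusted p below 0.05 and a smallest adjusted p of 0.257. In that smaller fit 18 of the 20 genes could be tested, all 18 had the sign of the full comparison, and their absolute log2 fold changes had a median ratio of 0.927 to the full values. ML12421a had a log2 fold change of 3.01 there and 3.46 with the 2 embryos left out. ML46396a had 3.32 and 3.47 in the same order, and ML104343a -2.11 and -2.80. ML08963a had 1.55 and 3.06, the widest gap among the named higher genes. Other genes went the other way, such as ML069110a with 3.34 and 2.29 and ML07361a with 3.00 and 2.46. In all, 13 of the 18 values were smaller in size with the 2 embryos alone and 5 were larger. The full values use both sets of embryos, so the shared signs follow in part from how the genes were chosen.

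**Figure D3:**
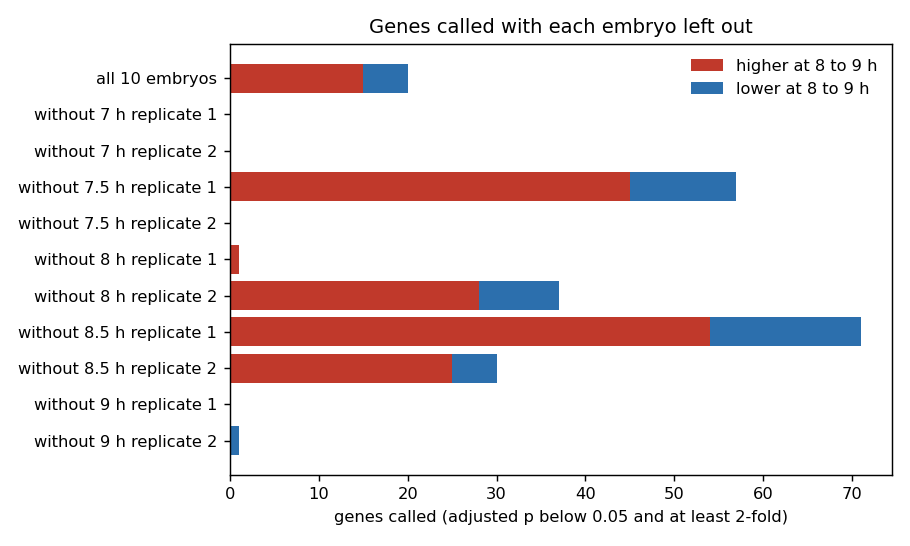
Number of genes called between 8 to 9 h and 7 to 7.5 h (adjusted p below 0.05 and at least 2-fold) with all 10 embryos and with each embryo left out in turn, split into genes higher (red) and lower (blue) at 8 to 9 h. The count was 20 with all embryos, 71 without 8.5 h replicate 1, and 0 without 7 h replicate 1, 7 h replicate 2, 7.5 h replicate 2 or 9 h replicate 1.

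Windows that do not overlap were more common than calls. In 390 of the 6305 genes (6.19%) every embryo of 8 to 9 h lay on 1 side of every embryo of 7 to 7.5 h, 194 of them higher (3.08%) and 196 lower (3.11%). Called genes were higher in 15 of 20 cases, while these genes were divided evenly. Without 8.5 h replicate 1 and 9 h replicate 1 the numbers were 439 and 501, of 5951 genes tested. With these 2 alone at 8 to 9 h they were 817 and 739, of 6717 genes tested. Fewer embryos leave fewer ways to overlap, so these counts cannot be set against the 390.

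Some of the largest differences that did not pass the test were on-or-off patterns between embryos of 1 window, and others were not. ML26355a, also chosen after its values were seen, had 71.9 and 158 CPM at 8 h, 106 and 123 at 8.5 h, and 49.5 and 16.8 at 9 h, against 3064 and 418 CPM at 7 h and 288 and 396 at 7.5 h, with a log2 fold change of -3.36 ± 0.70 (SE, edgeR adjusted p = 0.0517). Its windows did not overlap, every embryo had reads, and 7 h replicate 1 stood far above the rest. ML20688a, chosen after its values were seen, had 174 and 246 CPM at 8 h, 0 and 126 at 8.5 h, and 0 and 261 at 9 h, and no read in any embryo of 7 to 7.5 h (edgeR adjusted p = 0.0658). Both embryos of 8 to 9 h without a read of it were 8.5 h replicate 1 and 9 h replicate 1. ML03436a, of the second list, had at most 0.590 CPM in the other 4 embryos of 8 to 9 h, 23.2 CPM in 8.5 h replicate 1 and 7.17 CPM in 9 h replicate 1, against 25.5 to 35.1 CPM at 7 to 7.5 h (edgeR adjusted p = 0.111).

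Some gene models were read at 8 to 9 h and not before in these embryos. Of 16548 gene models, 27 had no read at 7 to 7.5 h and reads in at least 5 of the 6 later embryos. Their median was 16 reads at 8 to 9 h. The reverse pattern, with reads in all 4 embryos of 7 to 7.5 h and none at 8 to 9 h, was met by 6. These had at most 13 reads. The rules ask for unlike numbers of embryos, so 27 and 6 are not set against each other. Of the 27, 1 had enough reads to be tested and was not called. ML234553a had 198 reads in all, with 23.6 and 37.3 CPM at 8 h, 0.787 and 46.5 at 8.5 h, and 0 and 39.7 at 9 h, against 0 in all 4 embryos of 7 to 7.5 h. With 3 reads over the 7 to 7.5 h group as the limit that a count of 0 allows, it was at least 61.1-fold higher at 8 to 9 h (edgeR adjusted p = 0.0533, not called). It was again low or absent in 8.5 h replicate 1 and 9 h replicate 1. ML03181a (50 reads) was at least 15.4-fold higher, ML00761a (45 reads) at least 13.9-fold and ML063324a (34 reads) at least 10.5-fold by the same limit, none of them tested. ML00761a had 54.7 CPM in the shallow library and 1.18 to 4.57 CPM in the other 5. Such limits cover counting error only. ML234553a, ML03181a and ML00761a had reads in embryos of 0 to 3 h (means of 2.21, 0.519 and 0.0599 CPM, n = 8), so that 7 to 7.5 h was no first absence.

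The change between the windows could not be placed at 1 of the steps between sampled times. In a fit of 39 embryos with a factor for the 20 times, 10569 genes were tested and 0 were called in each of the steps from 7 to 7.5, 7.5 to 8, 8 to 8.5 and 8.5 to 9 h (edgeR, 374, 815, 708 and 672 genes at an unadjusted p below 0.05, in this order). Each step compares 2 embryos with 2. The 15 higher genes had median log2 changes of 1.07, 2.34, -0.58 and 0.83 over these 4 steps, and all 15 were positive from 7.5 to 8 h. The 5 lower genes had medians of -0.63, -1.85, 0.11 and -0.15, and all 5 were negative from 7.5 to 8 h. Over all genes the medians were -0.01, 0.05, -0.08 and 0.05. The genes were chosen on these embryos, so the signs across the boundary are a description. Between 7.5 and 8 h the 2 embryos of each age also stood on opposite sides of the division by the alternating genes.

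The embryos were also compared by a steady slope over the hours. With hour in place of window, edgeR called 86 genes at 2-fold or more an hour (1.36%), 72 rising (1.14%) and 14 falling (0.222%), and 121 at any size. The count of 86 ran from 15 to 113 when 1 embryo was left out. Without 8.5 h replicate 1 it was 66, beside 71 calls between the windows. Of the 15 higher genes 8 were among the 86, and of the 5 lower genes 3. ML124215a had a slope of 2.71 ± 0.23 on the log2 scale an hour (SE, edgeR adjusted p = 9.02e-05), and ML104343a had -1.85 ± 0.26 (SE, edgeR adjusted p = 0.00454). With both terms in 1 model edgeR called 0 genes for the window given the hour (366 at an unadjusted p below 0.05) and 0 for the hour given the window (373). A step and a slope could thus not be separated with these 10 embryos.

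Each pool held 1 embryo of every time. Within pool 12 alone edgeR called 11 genes (0.162%), 6 higher (0.0881%) and 5 lower (0.0734%), and within pool 6 alone 0 (706 at an unadjusted p below 0.05). Both embryos that stood with the 7 to 7.5 h embryos in the second list, 8.5 h replicate 1 and 9 h replicate 1, belong to pool 6. Of the 11 genes called in pool 12, 8 were tested in pool 6. Of these, 7 had the same sign, against 64.7% of all 6201 genes tested in both. For the 8, the median absolute log2 fold change was 4.31 in pool 12. In pool 6 their median in the direction of the call was 1.11. Within pool 12 every embryo of 8 to 9 h was low in the second list and both of 7 to 7.5 h were high. Window and division therefore cannot be told apart in that pool. Genes called from both pools together had medians of 3.06 in pool 6 and 2.86 in pool 12 for the higher genes, and of -1.96 and -2.55 for the lower genes, and these were chosen with both pools in view. No gene was called between the pools (693 at an unadjusted p below 0.05) or for a difference of the window change between the pools (232), both by edgeR.

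Over the whole series most of the higher genes had their highest level after 9 h. Levels over the series were scaled across 39 embryos, so they differ slightly from the values of the 10 embryos above. The highest mean level of a time fell at 20 h for 8 of the 15 higher genes, at 11 to 13 h for 3, at 10 h for 2 and at 8 to 9 h for 2. At 10 h the level is that of replicate 2 alone. ML46396a had 1.48 ± 1.21 CPM at 0 to 3 h (SD, n = 8), 3.71 ± 3.53 at 5.5 to 6.5 h (SD, n = 6), 1404 ± 585 at 11 to 13 h (SD, n = 6), and 2453 and 2496 CPM in the 20 h embryos. ML07361a reached the highest level of the group, with a mean of 7493 CPM at 13 h and 4433 and 5159 CPM at 20 h. ML16138a had its highest mean, 61.1 CPM, at 9 h, then 24.1 ± 1.23 CPM at 11 to 13 h (SD, n = 6), and 6.98 and 9.76 CPM in the 20 h embryos. ML03096a had its highest mean, 51.9 CPM, at 8 h, and had 11.9 ± 14.3 CPM already at 5.5 to 6.5 h (SD, n = 6).

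The lower genes were of different courses. ML104343a had 7361 ± 3507 CPM at 0 to 3 h (SD, n = 8), 4064 ± 1845 at 4 to 5 h, 1802 ± 695 at 5.5 to 6.5 h and 82.2 ± 26.2 at 11 to 13 h (SD, n = 6 each), and 29.3 and 39.1 CPM in the 20 h embryos. ML04812a and ML007428a also had their highest mean at 0 to 3 h, with 1706 ± 582 and 1463.5 ± 717 CPM there (SD, n = 8). Transcripts present at 0 h in an embryo of a spawned egg are, as background, mostly of maternal origin, and these 3 genes had reads from 0 h on. ML09066a and ML063336a had their highest mean at 7 h, with 158 and 237 CPM on the scale of 39 embryos. ML063336a was present early too, with 146 ± 95.1 CPM at 0 to 3 h (SD, n = 8) and 177 ± 93.1 at 4 to 5 h (SD, n = 6). ML09066a had 1.86 ± 1.53 CPM at 0 to 3 h (SD, n = 8), and its 7 h mean rests on 7 h replicate 1.

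**Figure D4:**
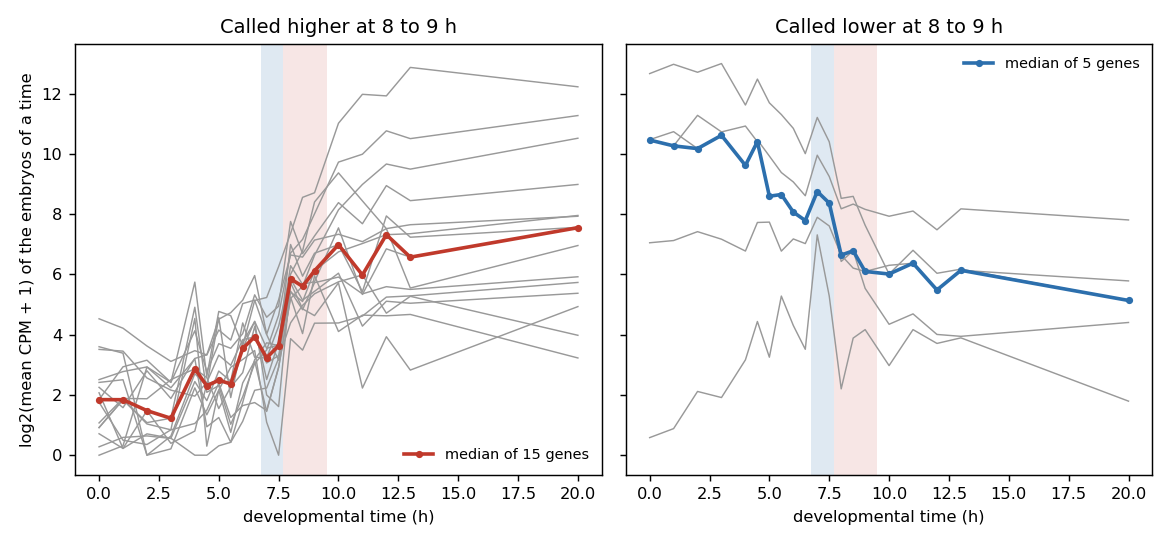
Level of the 15 genes called higher (left) and the 5 called lower (right) at 8 to 9 h, as log2(mean CPM + 1) of the embryos of each of the 20 times, with single genes in grey, their median in colour, and shading for 8 to 9 h (red) and 7 to 7.5 h (blue). The higher genes stay up after 9 h in most cases, with the highest mean at 20 h for 8 of 15, while 3 of the 5 lower genes have their highest mean at 0 to 3 h.

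Embryos outside the comparison gave a separate measure. Between 11 to 13 h and 5.5 to 6.5 h (6 embryos each, none among the 10), edgeR called 2634 of 6790 genes (38.8%), 1875 higher (27.6%) and 759 lower (11.2%) at 11 to 13 h. Of the 15 higher genes 14 had a positive log2 fold change there and 13 were called higher, with a median of 3.77, against 55.4% positive and a median of 0.12 over 6133 genes tested in both. The exception was ML03096a, at -0.24 ± 0.63 (SE, edgeR adjusted p = 0.769). ML46396a had a log2 fold change of 8.53 ± 0.50 (SE, edgeR adjusted p = 9.57e-10) and ML07361a 7.87 ± 0.42 (SE, edgeR adjusted p = 3.51e-10). All 5 lower genes had a negative value there, with a median of -0.88, and 2 were called lower, ML104343a at -4.23 ± 0.32 (SE, edgeR adjusted p = 1.48e-08) and ML04812a at -3.69 ± 0.32 (SE, edgeR adjusted p = 8.51e-08).

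The wider set of genes with windows that do not overlap showed a like difference between directions in those outside embryos. Of 194 such genes higher at 8 to 9 h, 190 were tested there, 180 were positive and 138 were called higher. Of 196 lower genes, 188 were tested, 152 were negative and 63 were called lower. The median log2 fold change was 2.16 for the higher set and -0.66 for the lower set, against 0.12 over all genes tested in both. Of these 6133 genes 3398 were positive and 2735 negative, and 1512 were called higher and 718 lower. All genes thus leaned to the higher side as well. By the alternating genes, 5 of the 6 embryos of 5.5 to 6.5 h were high in the first list and 1 in the second, while those of 11 to 13 h held both lists, with 35.1% to 88.1% of the summed level in the first.

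The neighbouring windows share embryos with the comparison, so their values stand beside it only. For 7 to 7.5 h minus 5.5 to 6.5 h edgeR called 321 of 6191 genes (5.18%), 168 higher (2.71%) and 153 lower (2.47%). For 11 to 13 h minus 8 to 9 h it called 851 of 6949 genes (12.2%), 635 higher (9.14%) and 216 lower (3.11%). Both counts exceed the 20 between 8 to 9 h and 7 to 7.5 h, although the comparisons differ in the number of embryos and in the hours they span. All embryos of 5.5 to 6.5 h but 5.5 h replicate 2 were high in the first list of alternating genes. All embryos of 7 to 7.5 h were high in the second, so age and the division cannot be told apart in most of that comparison. ML26664a, ML46396a and ML07361a were higher again at 11 to 13 h than at 8 to 9 h, with log2 fold changes of 3.53 ± 0.42, 3.17 ± 0.43 and 3.85 ± 0.36 (SE, edgeR adjusted p = 4.42e-05, 0.000103 and 9.94e-06). ML124215a and ML12421a had 0.19 ± 0.58 and 0.58 ± 0.46 there (SE), neither of them called. ML104343a and ML04812a were lower again at 11 to 13 h, with log2 fold changes of -1.83 ± 0.39 and -2.09 ± 0.38 (SE, edgeR adjusted p = 0.00404 and 0.00124). ML104343a had -0.01 ± 0.33 and ML04812a 0.43 ± 0.32 (SE) for 7 to 7.5 h minus 5.5 to 6.5 h, neither called. ML09066a had 2.41 ± 0.79, ML063336a 0.95 ± 0.25 and ML007428a 0.57 ± 0.26 there (SE), all higher at 7 to 7.5 h. ML063336a had an edgeR adjusted p of 0.0405 but stayed below 2-fold, while ML09066a (0.0858) and ML007428a (0.198) did not pass. From 6.5 to 7 h the mean level of each of the 5 lower genes rose. ML104343a went from 1029 to 2370 CPM and ML007428a from 390 to 993 CPM. The 7 h level of ML104343a was not above its level at 5.5 h (2534 CPM). Both embryos of 6.5 h were high in the first list and both of 7 h in the second. Age and that division therefore cannot be told apart in the rise from 6.5 to 7 h.

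Each embryo was also placed between the ends of the series by its likeness to the 20 h and the 0 h embryo of the other pool, with all libraries thinned to 343202 reads. The Spearman correlation with 20 h minus that with 0 h was 0.0337 and 0.0185 at 8 h, 0.00909 and 0.0335 at 8.5 h, and 0.0405 and 0.0504 at 9 h, against -0.100 and -0.0270 at 7 h and -0.0196 and -0.00520 at 7.5 h. All 6 embryos of 8 to 9 h were thus nearer the 20 h embryo and all 4 of 7 to 7.5 h nearer the 0 h embryo. The means were 0.0310 ± 0.0149 (SD, n = 6) and -0.0381 ± 0.0425 (SD, n = 4), a difference of 0.0690 (two-sided exact permutation p = 0.00476, the smallest that 210 arrangements allow, 0.00952 adjusted over 2 tests). The boundary was known from earlier results of these data, so the test is no separate support for it, and embryos of a pool share their references. Without 8.5 h replicate 1 and 9 h replicate 1 the difference was 0.0721, and with these 2 alone at 8 to 9 h it was 0.0628. These 2 embryos were set apart by their measured levels, so the 2 differences get no test. The correlations are across genes, and both 0 h embryos were high in the first list of alternating genes.

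**Figure D5:**
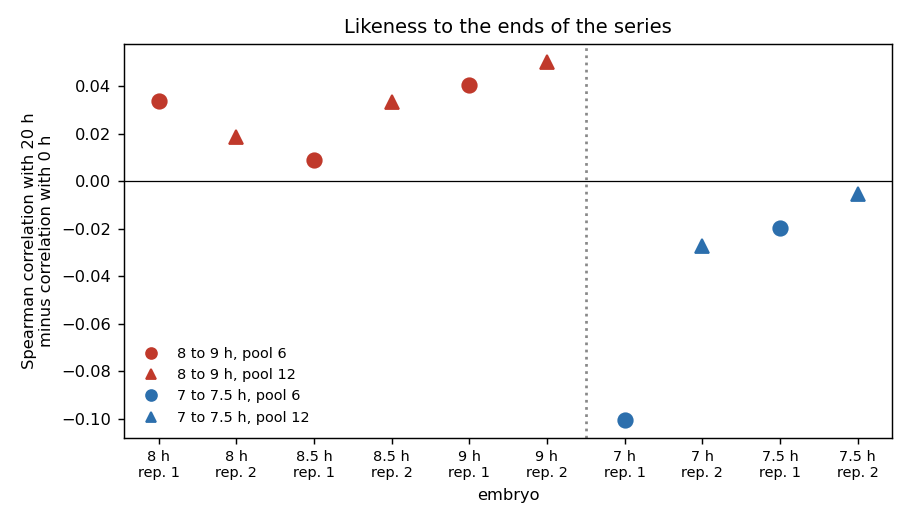
Spearman correlation with the 20 h embryo of the other pool minus that with its 0 h embryo, for the 6 embryos of 8 to 9 h (red) and the 4 of 7 to 7.5 h (blue), with circles for pool 6 and triangles for pool 12. All 6 red points lie above 0, the lowest at 0.00909 for 8.5 h replicate 1, and all 4 blue points below it, the lowest at -0.100 for 7 h replicate 1.

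The nearest embryo was not always one of the same age. In 39 embryos without thinning, 8 h replicates 1 and 2 were nearest each other (Spearman correlation 0.939), and the second nearest of both was 6.5 h replicate 1. The nearest to 8.5 h replicate 1 was 7 h replicate 2 (0.936), followed by 7.5 h replicate 1 (0.931), and the nearest to 9 h replicate 1 was 8.5 h replicate 1 (0.923). The nearest to 9 h replicate 2 was 8 h replicate 2 (0.891), and 8.5 h replicate 2, the shallow library, was also nearest 8 h replicate 2 (0.775). The nearest to 7 h replicate 1 was 7 h replicate 2 (0.904), followed closely by 4.5 h replicate 1 (0.903), and both are high in the second list. Among the 10 embryos thinned to equal depth some ranks turned. There 8.5 h replicate 1 was nearest 7.5 h replicate 1 (0.873), with 7 h replicate 2 at 0.865, and 9 h replicate 2 was nearest 8 h replicate 1 (0.845), with 8 h replicate 2 at 0.843. In the unthinned ranks 7 h replicate 2 and 8 h replicate 2, the deepest libraries of their windows, were the nearest in these cases.

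The number of genes detected did not differ between the windows beyond the spread. At 343202 reads each, 8187.2 ± 316.6 gene models had a read at 8 to 9 h (SD, n = 6) and 7903.3 ± 380.3 at 7 to 7.5 h (SD, n = 4), a difference of 283.9 (two-sided exact permutation p = 0.224, 0.224 adjusted over 2 tests).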

How the data were processed

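The deposited table holds counts (whole numbers, 1 column an embryo), and the authors also gave a sheet of samples whose other values (time, barcode, lane, Illumina index) are not measurements. Tools were HTSeq 0.5.4p3, Bowtie2 2.1.0 and CASAVA 1.8, per the submitters' processing notes. Build, annotation, strand setting and merging of molecular identifiers: all not given in the sources used here. Counts are taken as reads, and close gene copies are uncertain. Totals that name no gene were left out, and of all reads 46.8% to 54.4% were not aligned.

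Counts were tested with edgeR 4.0.16 in R 4.3.3 (filterByExpr with a minimum count of 10, TMM, quasi-likelihood F test of window with pool as block), and DESeq2 1.42.0 was an alternative. Calls needed a Benjamini-Hochberg adjusted p below 0.05 and a log2 fold change of 1 or more in size. SEs are approximate (log2 fold change over the square root of F). The 39-embryo fits leave out 10 h replicate 1. Scripts were tested on simulated data.

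The pool comes from the authors' sheet. Same-age deviations correlated with a median of 0.109 over 10 pairs of times (0.00743 to 0.276), 6 of them over 0.1. Named genes were the 8 called genes a direction with the largest fold change, at least 10 CPM and windows that do not overlap, the 4 a direction with the highest mean, and the 4 with most reads at 8 to 9 h and none at 7 to 7.5 h. A further part of the rule found no gene, and functional lists could not be matched. Members, lists and tests were chosen with earlier results of these data known.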

Additional observations from a re-analysis of the deposited data

Results flagged for a closer look

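A sample was marked where its gap to the nearest other embryo of its window was large for the range of that window (Dixon's criterion), which chance does for about 1 in 20 groups. Of 58 groups, 7 were marked. At 8 to 9 h, 8.5 h replicate 2, the shallow library, stood apart with 24.6 CPM of ML03181a, with 54.7 CPM of ML00761a and with 54.4% of its reads not aligned. In the same window 9 h replicate 2 stood apart with 81.7 CPM of ML070250a. At 7 to 7.5 h, 7 h replicate 1 stood apart with 254 CPM of ML09066a, and 7 h replicate 2 with 2.1 CPM of ML13311a and 20.8 CPM of ML21938a.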

How the results depend on the processing

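The count of 20 called genes (15 higher, 5 lower) depended on most settings. It was 163 with 39 embryos (109 and 54), 65 with a 5-level time factor (51 and 14), 57 with median-of-ratios scaling (43 and 14), 63 with total counts (49 and 14), 61 with thinned libraries (49 and 12), 504 with no low-count filter (364 and 140), 433 with DESeq2 on the same genes (312 and 121, added after seeing the data) and 460 with DESeq2 and no filter together (336 and 124, 13471 genes tested). With glmTreat it was 0 (0 and 0, 300 at an unadjusted p below 0.05), in pool 6 alone 0 (0 and 0) and in pool 12 alone 11 (6 and 5). All 20 genes were among the calls with DESeq2, other scalings or no filter, 18 with 39 embryos and 2 in pool 12 alone. With 8.5 h replicate 1 and 9 h replicate 1 left out it was 106 (56 and 50), and with these alone at 8 to 9 h 0 (0 and 0), both chosen after seeing the data. Without 1 embryo at a time it ran from 0 to 71 (0 to 54 higher, 0 to 17 lower). It was 0 when either 7 h embryo, 7.5 h replicate 2 or 9 h replicate 1 was dropped (796 to 1011 at an unadjusted p below 0.05). Dropping 8 h replicate 1 or 9 h replicate 2 gave 1, dropping 8.5 h replicate 2 gave 30, dropping 8 h replicate 2 gave 37, dropping 7.5 h replicate 1 gave 57 and dropping 8.5 h replicate 1 gave 71. The cause was not tested.

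Without the pool as block, edgeR called 2 genes, 2 higher and 0 lower (1042 at an unadjusted p below 0.05), and the block changed no call of the steps or of the window given the hour.

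Without 1 embryo, calls ran from 0 to 12 for the step 7.5 minus 7 h (1 in the 10 embryos alone), 0 to 14 for 8 minus 7.5 h, 0 to 137 for 8.5 minus 8 h, 0 to 165 for 9 minus 8.5 h (the 137 and 165 without 8.5 h replicate 1, when 8.5 h is the shallow library alone and is assumed to vary like the other times), 15 to 113 for the slope at 2-fold an hour and 16 to 200 at any size. The neighbouring windows gave 93 to 565 calls for 7 to 7.5 h minus 5.5 to 6.5 h and 674 to 995 for 11 to 13 h minus 8 to 9 h. Windows that do not overlap numbered 439 higher and 501 lower of 5951 genes without 8.5 h replicate 1 and 9 h replicate 1. With these alone at 8 to 9 h the numbers were 817 and 739 of 6717 genes. Without 8.5 h replicate 2 they were 314 and 269 of 6307 genes. Such counts are not comparable, since fewer embryos leave fewer ways to overlap. The difference in likeness ran from 0.0482 to 0.0800 without 1 embryo and was 0.0628 with the 2 embryos alone at 8 to 9 h. The difference in genes detected ran from 151.8 to 437.8, and without thinning it was -150.1 (exact permutation p = 0.848). Of 510 values of named genes under alternatives, 271 kept their call or lack of one, 230 lost their call, 9 gained one, all for ML234553a, and 0 changed sign, which the choice of genes fixes in part. The median log2 fold change of all genes was 0.17 with DESeq2 and no filter, 0.02 with DESeq2 on the same genes and 0.03 in the reported fit. At 343202 reads in the shallow library, genes below 8.74 CPM were not measurable there.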
